A study of Mus musculus with 96 samples.

Results

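The lysyl oxidase family was followed across mouse embryonic stem cells (ESCs) in which the Polycomb protein RYBP was removed, depleted, mutated or induced. The ChIP-seq lists also include RING1B in ESCs labelled as a Stat3 knockdown (shStat3), beside empty vector ESCs (shEV). The members were taken by gene symbol, as the rows for Lox, Loxl1, Loxl2, Loxl3 and Loxl4 in every table of RNA-seq counts, together with the ChIP-seq peaks at their loci. They make up 5 of the 37620 genes in each table. The family was chosen by the CPM values of shRybp against shEV libraries, where Loxl4 stood among the genes with the largest rises, so the values from that knockdown are a description here, given with no p-value. The shEV levels in that contrast were used again as the controls of the WDR5 knockdown. CPM is the read count of a gene scaled to the size of its library.

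Lysyl oxidases are secreted, copper-dependent enzymes that oxidise lysines in collagen and elastin, and the oxidised residues then form the covalent cross-links that stiffen the extracellular matrix. Lox is activated outside the cell by the protease Bmp1, which also trims procollagen. Loxl2, Loxl3 and Loxl4 carry scavenger receptor cysteine-rich domains that Lox and Loxl1 lack, and Loxl2 is known for cross-linking collagen IV of basement membranes. RYBP is a subunit of Polycomb repressive complex 1 (PRC1), whose catalytic subunit RING1B ubiquitinates histone H2A, and WDR5 is a core subunit of the complexes that methylate H3K4. STAT3 is the transcription factor downstream of LIF, the cytokine in the culture medium of these cells.

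RNA-seq covered 7 comparisons with 2 libraries per group, 28 libraries as counted in the tables. In the R7.15 line, Rybp-floxed ESCs (Rybp+/+) were compared with Rybp-/- ESCs made by 5 µM 4-hydroxytamoxifen (4-OHT) for 4 days. As only the Rybp-/- cells received 4-OHT, the agent and the genotype cannot be told apart. In the R1 line, empty vector ESCs (shEV) were compared with RYBP knockdown (shRybp) and with WDR5 knockdown (shWdr5). The same shEV libraries served both knockdowns and were counted anew in the second table, so those comparisons share their controls. Also in R1, WT ESCs were compared with ESCs of the genotype TF-AA mutation. In R7.15 cells of the genotype RYBPfl/fl Rosa26::CreERT2, all treated with 4-OHT, an overexpressed wild-type RYBP (WT.RYBP) was compared with a RYBP carrying a deletion termed 21aa (RYBP phase disruption). In the J1 line with Tet on.RYBP, vehicle was compared with DOX (Tet.RYBP). In the rTRS line, which holds a DOX-induced Rybp_Stat3 integration, untreated cells (NTC) were compared with DOX. In both the Tet.RYBP and rTRS comparisons only the test cells received DOX, so the agent and the induction cannot be told apart. The labels do not say that replicates were separate cultures or clones, so p-values measure only the spread between these libraries, which may be technical.

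The members lie on different chromosomes of mm9. Lox (ENSMUSG00000024529) is at chr18:52675723-52689521 on the minus strand. Loxl1 (ENSMUSG00000032334) is at chr9:58135530-58161019, minus strand, and Loxl2 (ENSMUSG00000034205) at chr14:70008978-70095640, plus strand. Loxl3 (ENSMUSG00000000693) is at chr6:82984167-83002556, plus strand, and Loxl4 (ENSMUSG00000025185) at chr19:42668472-42687303, minus strand. Loxl2 is overlapped on the opposite strand by the lincRNA gene Gm16867 and Loxl3 by Htra2. The strand setting of the counting is not given in the sources used here, so reads of Loxl2 and Loxl3 in those overlaps may belong to their partners.

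The libraries held 14512857 to 81049618 counts on genes. Rybp fell in Rybp-/- ESCs by 2.15 on the log2 scale, and fell by 1.25 in shRybp ESCs. Wdr5 fell by 2.55 in shWdr5 ESCs. With DOX, Rybp rose by 1.91 in Tet.RYBP cells. In the libraries labelled rTRS DOX, however, Rybp was not higher than in NTC (102 and 99.7 against 113 and 110 CPM; log2 fold change -0.15 ± 0.06, edgeR adjusted p = 0.0762), so every direction given for rTRS rests on the label alone. Stat3 rose by 0.20 there (adjusted p = 0.0259). Core ESC markers were expressed in every library, with Pou5f1, Sox2, Nanog and the other 7 genes of the list summing to between 3881 and 9202 CPM, and the lowest sums were those of the libraries labelled rTRS DOX. A gene was called changed at an adjusted p below 0.05 over all genes of its table. Overlap of libraries between groups was noted for named genes only. The share of all genes without overlap was not counted, so nothing is read from non-overlap. In bulk RNA, fewer cells expressing a gene and less RNA per cell cannot be told apart.

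To show what kind of DNA lies at the loci, 4 stretches are printed on the strand of the gene, 5′ to 3′, with each CpG in capitals. The first is the Loxl4 promoter from RefSeq (GRCm38.p6, chr19:42612757-42613056), the member that stood out in the knockdown. It held 32 CpGs in 300 bases, at the 91.4th percentile of 32851 promoters of that length, whose median was 7, and its GC content was 75.0%. Of the 5 members, 1 was matched in the RefSeq promoter table. The other stretches are windows of 201 bases around STAT3 summits inside the genes, called in the DOX+ cells with the Rybp_Stat3 integration (mm9): an intron of Loxl1 (chr9:58143951-58144151), a coding exon of Loxl2 (chr14:70033864-70034064) and a coding exon of Loxl4 (chr19:42678651-42678851). They held 2, 13 and 9 CpGs, beside a median of 11 over all 30662 summit windows of that list.
Loxl4 promoter: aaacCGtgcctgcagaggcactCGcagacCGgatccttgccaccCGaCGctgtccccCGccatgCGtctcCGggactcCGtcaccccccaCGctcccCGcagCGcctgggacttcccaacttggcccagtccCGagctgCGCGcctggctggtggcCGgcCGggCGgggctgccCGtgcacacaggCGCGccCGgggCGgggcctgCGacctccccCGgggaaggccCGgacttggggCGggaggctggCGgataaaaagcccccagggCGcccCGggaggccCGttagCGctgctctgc
Loxl1 intron: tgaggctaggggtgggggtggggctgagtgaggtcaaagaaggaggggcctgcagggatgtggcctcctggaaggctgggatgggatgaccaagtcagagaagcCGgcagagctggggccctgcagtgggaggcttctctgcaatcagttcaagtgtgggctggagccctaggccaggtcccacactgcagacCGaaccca
Loxl2 coding exon: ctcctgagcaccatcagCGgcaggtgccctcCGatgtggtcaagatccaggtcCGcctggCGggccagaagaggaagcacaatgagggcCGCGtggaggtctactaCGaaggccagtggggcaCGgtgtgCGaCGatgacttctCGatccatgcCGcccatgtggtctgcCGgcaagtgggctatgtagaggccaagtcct
Loxl4 coding exon: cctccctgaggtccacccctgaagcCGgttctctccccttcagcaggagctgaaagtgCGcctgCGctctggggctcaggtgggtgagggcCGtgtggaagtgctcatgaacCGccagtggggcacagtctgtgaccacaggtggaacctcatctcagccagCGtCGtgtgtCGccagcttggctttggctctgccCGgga

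The STAT consensus TTCNNNGAA, which is its own reverse complement, was in none of these 4 stretches and in 0 of the 14 summit windows called at the members in the DOX+ list. It was in 8.3% of all promoters and in 3.82% of all DOX+ summit windows. A search for ACGTG, the core of the hypoxia response element, on both strands found 1 of the 14 windows, the one 1219 bp downstream of the Loxl1 start, and no match in the Loxl4 promoter. That core was in 19.6% of promoters and 16.2% of windows. No match says only that these letters are not in the window.

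Lines differed in which members they expressed (the plot of CPM by library). The tables were normalised separately, so levels set across them are descriptions. Lox was highest in the R7.15 cells. Its mean was 84.3 ± 2.1 CPM (SD, n = 2) in WT.RYBP, 66.9 ± 3.95 in RYBP phase disruption, 35.0 ± 0.529 in Rybp-/- and 21.0 ± 1.02 in Rybp+/+ ESCs, 4 groups whose libraries did not overlap. In all R1, J1 and rTRS libraries Lox was at 0.558 CPM or less, and in the WT ESC libraries no read was counted. The R7.15 libraries also had the highest sums of 10 fibroblast (feeder) markers. These were 103.1 to 218.2 CPM with Rybp+/+ and Rybp-/-, and 355.8 to 480.9 CPM with WT.RYBP and RYBP phase disruption. In the other lines the sums were 41.2 CPM or less. The part of such cells in the Lox level was not tested. Loxl2 was expressed in every line, from 76.7 ± 0.842 CPM in rTRS DOX down to 3.92 ± 0.461 in shWdr5, and rTRS NTC (62.2 ± 1.30) and RYBP phase disruption (62.2 ± 2.25) could not be ordered. Loxl1 ran from 27.7 ± 4.48 CPM in WT.RYBP to 1.94 ± 0.943 in Tet.RYBP vehicle. The shRybp and Rybp-/- libraries overlapped in Loxl1 (17.8 ± 0.474 and 17.3 ± 0.325), as did the WT ESC and both Tet.RYBP groups at the low end. Loxl3 was highest in Rybp-/- ESCs (16.2 ± 0.293) and lowest in Tet.RYBP DOX (0.207 ± 0.112). Loxl4 was highest in shRybp (12.2 ± 0.978), followed by RYBP phase disruption (5.47 ± 0.0574) and WT.RYBP (5.26 ± 0.234), and lowest in Tet.RYBP DOX (0.211 ± 0.0266). In 6 control groups (Rybp+/+, Tet.RYBP vehicle, rTRS NTC, both countings of shEV and WT ESC), Loxl4 lay at or below 1.06 CPM.

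**Figure D1:**
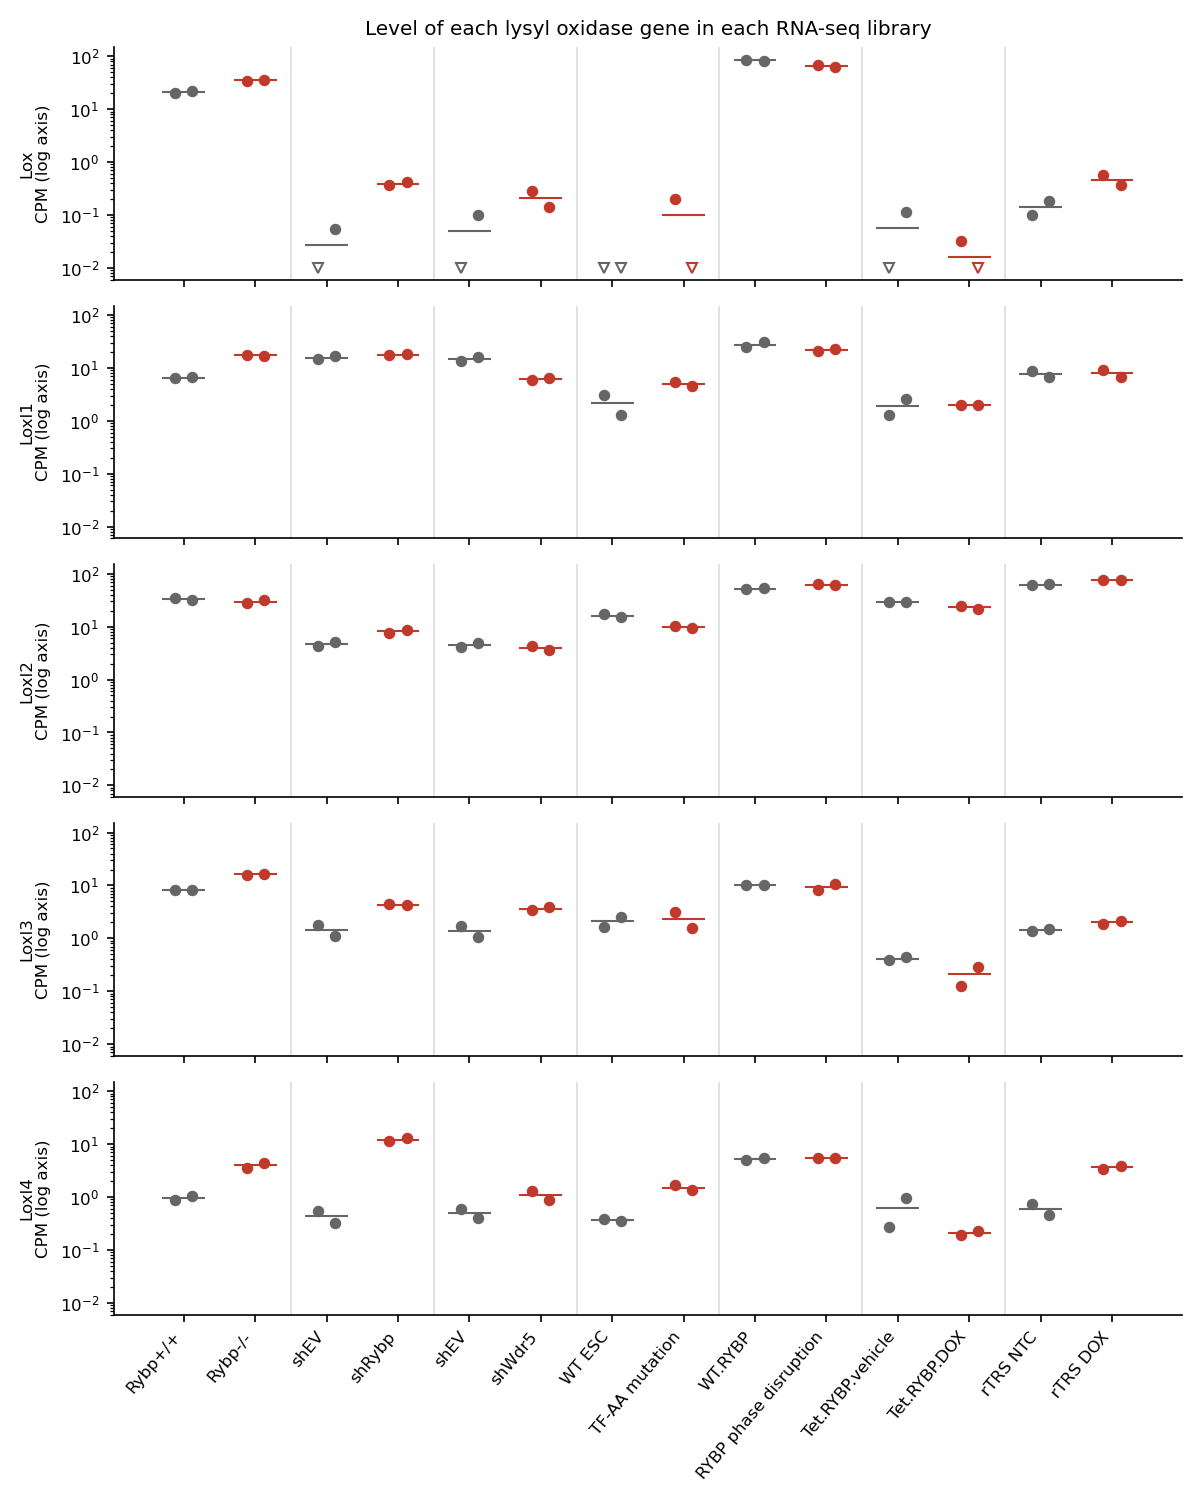
Level of each member (CPM on a log axis) in every library, by comparison, with control libraries in grey, test libraries in red, a line at each group mean and an open triangle, drawn at 0.01, for a library with 0 reads. Lox is between 20.3 and 85.7 CPM in the R7.15 libraries and at 0.558 CPM or less elsewhere, and Loxl4 is highest in the shRybp libraries (11.5 and 12.9 CPM).

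Per kilobase of transcript, the scale on which genes can be compared, the family's output was led by different members. Loxl2 made up 87.0 ± 5.62% of it in Tet.RYBP vehicle, 80.3 ± 2.68% in rTRS NTC and 71.2 ± 2.39% in WT ESCs. In shEV ESCs, which are also R1 cells, Loxl1 made up 77.9 ± 2.29% and Loxl2 14.5 ± 0.665%. The control groups of the R1 line were therefore led by different members, and they came from different tables. In Rybp+/+ ESCs Loxl2 (41.9 ± 1.74%) and Lox (30.2 ± 1.48%) led, and in WT.RYBP cells Lox did (45.3 ± 2.45%). Loxl4 was at or below 3.14% in every control group.

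Following deletion of Rybp in R7.15 ESCs, 4 of the 5 members rose and 1 fell, in a table where 22.8% of 16955 genes were called higher and 22.7% lower (45.5% in all). With a log2 limit of 1 in addition, 2 members and 7.84% of all genes were called. Loxl4 changed most, from 0.890 and 1.06 CPM in Rybp+/+ to 3.51 and 4.48 CPM in Rybp-/- ESCs. Its log2 fold change was 2.03 ± 0.21 (SE; edgeR adjusted p = 6.07e-10). The groups did not overlap for this or any other member, a description given without the share over all genes. Loxl1, an enzyme of elastic fibre maintenance, went from 6.37 and 6.61 to 17.5 and 17.0 CPM (1.41 ± 0.09, adjusted p = 1.06e-14). Loxl3 went from 8.36 and 8.10 to 16.0 and 16.4 CPM (0.98 ± 0.09, adjusted p = 3.42e-11). Loxl3 thereby reached its highest level of any group here. Lox went from 20.3 and 21.7 to 34.6 and 35.3 CPM (0.73 ± 0.06, adjusted p = 1.01e-11). Loxl2 was the member that fell, from 34.2 and 32.2 to 28.4 and 31.4 CPM (-0.15 ± 0.06, adjusted p = 0.041). That last call was lost with DESeq2 (adjusted p = 0.128), without the low-count filter (0.0934), without Rybp+/+ replicate 1 (0.212) and without Rybp-/- replicate 1 (0.453). Per kilobase, the Loxl2 share went from 41.9 ± 1.74% to 24.3 ± 1.01% of the family and the Loxl1 share from 13.1 ± 0.347% to 22.5 ± 1.04%.

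Markers of other cell types moved in the same libraries. Of 10 fibroblast markers 9 rose, and their summed level went from 103.1 to 103.5 CPM in Rybp+/+ up to 212.9 to 218.2 CPM in Rybp-/- ESCs. Among them Thy1 went from 10.0 and 8.86 to 19.7 and 21.3 CPM, Col6a1 from 4.41 and 3.86 to 8.70 and 8.05 CPM and Col6a2 from 3.37 and 3.91 to 9.66 and 8.55 CPM. Dcn and Lum were low in both groups. Dcn was at 0.394 and 0.311 CPM, then 0.815 and 0.714 CPM, and Lum had 1 and 6 reads, then 10 and 10. The 7 trophectoderm markers rose as well, with sums of 152.1 to 154.9 against 183.9 to 191.9 CPM, although Cdx2 and Elf5 passed the low-count filter only through Rybp-/-. Of 9 tested primitive endoderm markers 4 rose (192.0 to 198.5 against 284.8 to 284.9 CPM). Of 10 ESC markers 5 rose and 3 fell (6057 to 6164 against 6358 to 6367 CPM). Of 4 tested neural markers 2 rose and 1 fell (101.7 to 108.5 against 118.0 to 118.4 CPM). Of 4 tested mesoderm markers 1 rose (6.11 to 7.14 against 7.86 to 7.94 CPM). Their part in the result was not tested.

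In the shRybp knockdown, the contrast used to choose the family, the counts are given only beside their background and nothing is read from them. The fit placed 4 members higher and none lower, in a table where 26.8% of 16538 genes were called higher and 26.0% lower (52.7% in all, and 12.6% past a log2 limit of 1). Loxl4 was at 0.556 and 0.326 CPM in shEV and at 11.5 and 12.9 CPM in shRybp, a log2 fold change of 4.77 ± 0.22. Loxl3 was at 1.79 and 1.09 CPM against 4.47 and 4.21 CPM (1.58 ± 0.25). Loxl2 was at 4.32 and 5.03 CPM against 7.66 and 8.80 CPM (0.82 ± 0.15). The groups did not overlap in these members. Lox remained rare and passed the low-count filter only through the shRybp libraries, with 2 reads in both shEV libraries together and 39 in shRybp, a ratio of 14.9 after scaling with a 95% counting interval of 3.85 to 127. Both shEV reads were in replicate 2, and without shEV replicate 1 the ratio was 7.17 (1.86 to 61.3). Loxl1, the most abundant member of shEV ESCs, was at 14.7 and 16.7 against 17.4 and 18.1 CPM (0.18 ± 0.10). On the per-kilobase scale Loxl4 went from 1.76 ± 0.748% to 26.6 ± 0.934% of the family's output, second to Loxl1 at 48.9 ± 0.899%. Dcn and Lum had 0 reads in these 4 libraries, and the fibroblast list summed to 19.6 to 20.9 CPM in shEV and 36.2 to 37.4 CPM in shRybp. The trophectoderm list went from 116.2 to 126.6 CPM up to 322.2 to 337.8 CPM and the primitive endoderm list from 212.8 to 226.4 CPM up to 501.4 to 519.2 CPM. Of 10 ESC markers 4 were called higher and 5 lower, with sums of 8921 to 9202 CPM in shEV and 7755 to 7796 CPM in shRybp. Of 4 tested neural markers 1 was called higher and 2 lower (306.8 to 319.9 against 228.6 to 231.2 CPM). The part of these lists in the result was not tested.

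WDR5 depletion was measured against the same shEV libraries. Of the 4 members in the fit, 2 were called higher and 1 lower, where 31.5% of 15143 genes were called higher and 31.5% lower (63.0% in all, and 18.6% past a log2 limit of 1). The shEV levels were among the values that chose the family, so the members' differences from them are not independent of that choice and are given as a description, with no p-value, and nothing is read from the count. Loxl1 was at 13.7 and 15.9 CPM in shEV and at 5.93 and 6.43 CPM in shWdr5, a log2 fold change of -1.26 ± 0.13. Loxl3 was at 1.68 and 1.06 CPM against 3.41 and 3.88 CPM (1.40 ± 0.26). The libraries of the groups did not overlap in either gene. Loxl4, whose low shEV level took part in the choice and which passed the filter only through the shWdr5 libraries, was at 0.607 and 0.405 CPM in shEV and 1.31 and 0.863 CPM in shWdr5 (1.09 ± 0.44). Its log2 fold change was 0.76 to 1.42 with 1 library left out. Loxl2 overlapped between the groups, at 4.11 and 4.91 against 4.25 and 3.60 CPM (-0.20 ± 0.19). Lox had 2 reads in shEV and 9 in shWdr5 and was not tested. Side by side, Loxl1 had a log2 fold change of 0.18 in shRybp and -1.26 in shWdr5, and Loxl4 had 4.77 and 1.09. As these comparisons share their controls, no test between them was made. Rybp itself was higher in shWdr5 (0.56 ± 0.05, adjusted p = 3.81e-09). The fibroblast list summed to 19.1 to 20.2 CPM in shEV and 10.7 to 10.8 CPM in shWdr5, with Dcn and Lum at 0 reads. Of its 4 tested markers 1 was called higher and 3 lower. The trophectoderm list went from 109.8 to 119.7 CPM up to 251.8 to 262.3 CPM, with 4 of 6 tested markers called higher and none lower. The primitive endoderm list was mixed, with 4 of 9 tested markers called higher and 3 lower. Its sum went from 200.1 to 213.6 CPM up to 333.6 to 335.4 CPM. Of 10 ESC markers 6 fell and 2 rose, with sums of 8386 to 8655 against 7056 to 7144 CPM. Of 4 tested neural markers 2 rose and 2 fell (289.0 to 301.7 against 175.0 to 186.0 CPM), and 1 of the 4 passed the low-count filter only through shWdr5. Their part in the result was not tested.

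**Figure D2:**
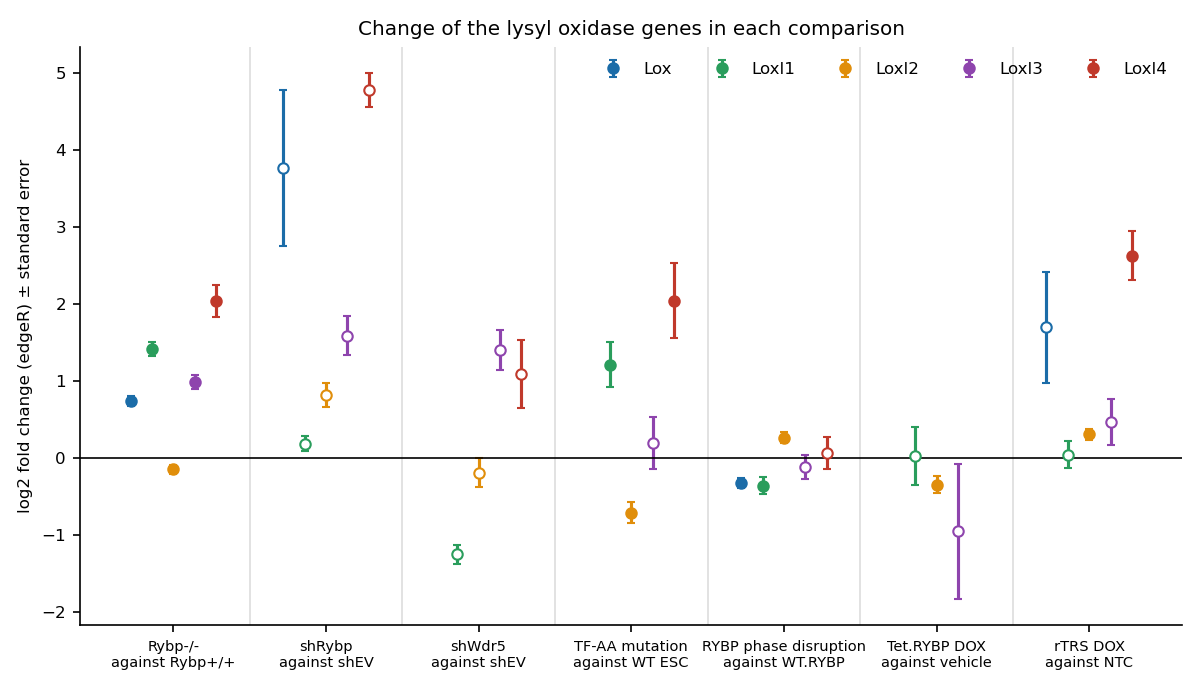
Log2 fold change of each member in the 7 comparisons, with bars of 1 SE. Filled points passed an adjusted p below 0.05, open points did not, and the shRybp and shWdr5 points are all open because their shEV libraries were among those that chose the family; members without enough reads for a test have no point. The TF-AA point of Loxl4, the rTRS point of Lox and the Tet.RYBP point of Loxl3 passed the low-count filter through 1 group only. Apart from those knockdowns, Loxl4 lies above 1 in Rybp-/-, TF-AA and rTRS DOX and near 0 in RYBP phase disruption, and Loxl2 lies above 0 in 2 comparisons and below 0 in 3.

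In the TF-AA mutation 4 members were tested, and Loxl1 rose and Loxl2 fell, where 14.4% of 14456 genes were called higher and 16.1% lower (30.5% in all, and 8.14% past a log2 limit of 1). Loxl4 was at 0.382 and 0.346 CPM in WT ESCs and at 1.69 and 1.33 CPM in TF-AA (2.04 ± 0.48). It passed the low-count filter only through the TF-AA libraries, where it was high (34 and 25 reads, against 8 and 7), so it had to differ and is not counted among the members that rose. In the fit without that filter its adjusted p was 0.000391, and with the filter but without TF-AA mutation replicate 1 it missed the threshold (1.86, adjusted p = 0.0576). Loxl1 went from 3.05 and 1.28 to 5.46 and 4.59 CPM (1.21 ± 0.29, adjusted p = 0.00246). The size of that change rested on the WT ESC libraries, being 1.96 without WT ESC replicate 1 and 0.71 without WT ESC replicate 2, and the call held in both cases. Loxl2, the leading member of WT ESCs, fell from 17.1 and 15.3 to 10.3 and 9.38 CPM (-0.72 ± 0.14, adjusted p = 0.000336). Loxl3 overlapped between the groups, at 1.67 and 2.52 against 3.13 and 1.60 CPM (0.19 ± 0.34, adjusted p = 0.719). The other 3 tested members did not, again without a share over all genes. Lox was seen as 4 reads in 1 TF-AA library and 0 in the other 3, too few to test. Rybp did not pass the test in these cells (-0.19 ± 0.08, adjusted p = 0.0959). The fibroblast list summed to 17.6 to 17.9 CPM in WT ESCs and 29.9 to 31.3 CPM in TF-AA, with Dcn and Lum at 0 reads, the primitive endoderm list to 178.7 to 187.1 and 301.8 to 307.4 CPM, and the trophectoderm list to 71.9 to 72.3 and 91.7 to 98.2 CPM. Their part in the result was not tested.

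In RYBP phase disruption the changes were small. Of 5 members 1 rose and 2 fell, where 16.1% of 14575 genes were called higher and 17.0% lower (33.0% in all). A log2 limit of 1 was passed by 0 members and 6.77% of all genes. Lox fell from 85.7 and 82.8 CPM in WT.RYBP to 69.6 and 64.1 CPM (-0.33 ± 0.07, adjusted p = 0.000146). Loxl1 fell from 24.6 and 30.9 to 20.6 and 22.5 CPM (-0.36 ± 0.11, adjusted p = 0.00899). Loxl2 rose from 51.3 and 52.8 to 63.7 and 60.6 CPM (0.26 ± 0.07, adjusted p = 0.00519). None of these 3 members overlapped between the groups, again without a share over all genes. The Loxl1 call was lost with DESeq2 (0.113), without the low-count filter (0.095), without WT.RYBP replicate 2 (0.316) and without RYBP phase disruption replicate 1 (0.0911). The Loxl2 call was lost with DESeq2 (0.0813) and without WT.RYBP replicate 1 (0.081). Loxl3 (10.2 and 10.2 against 8.21 and 10.5 CPM; -0.12 ± 0.16) and Loxl4 (5.09 and 5.42 against 5.43 and 5.51 CPM; 0.06 ± 0.21) did not pass the test. The expressed Rybp was lower in the mutant cells (661 and 625 against 749 and 753 CPM; -0.22 ± 0.04). Of the 10 fibroblast markers 6 fell, from sums of 480.7 to 480.9 CPM to 355.8 to 373.8 CPM, with Dcn at 2.83 and 2.93 against 1.90 and 2.69 CPM. These were the highest fibroblast sums among the 28 libraries. Of 6 tested trophectoderm markers 5 rose (376.4 to 387.6 against 497.0 to 521.9 CPM), and of 8 primitive endoderm markers 3 rose and none fell (238.0 to 239.8 against 255.1 to 255.2 CPM). The part of these lists in the result was not tested.

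With DOX in J1 cells, 1 of 3 tested members was called, where 2.39% of 14937 genes were called lower and 3.63% higher (6.02% in all, and 0.904% past a log2 limit of 1). Loxl2 fell from 29.1 and 29.7 CPM with vehicle to 24.1 and 22.1 CPM with DOX (-0.35 ± 0.11, adjusted p = 0.0451), without overlap. The call was lost with DESeq2 (0.111), without vehicle replicate 2 (0.0724), without DOX replicate 1 (0.135) and without DOX replicate 2 (0.416). Loxl1 was at 1.27 and 2.61 CPM with vehicle and 1.95 and 1.98 CPM with DOX (0.02 ± 0.38, adjusted p = 0.984). Loxl3 was at 0.387 and 0.434 against 0.128 and 0.287 CPM (-0.96 ± 0.87, adjusted p = 0.624), and it passed the filter only through the vehicle libraries. Loxl4, at 0.277 and 0.956 CPM with vehicle and 0.192 and 0.229 CPM with DOX, was removed by the low-count filter and not tested, as was Lox with 4 reads against 1. The Loxl4 groups did not overlap, and their 43 reads against 14 gave a ratio of 0.348 after scaling (95% counting interval 0.176 to 0.648, counting error only). That ratio rested on vehicle replicate 2, which held 33 of the reads. Without it the ratio was 0.765 (0.316 to 1.92). No fibroblast or primitive endoderm marker was called in this table, and Dcn, Lum and Twist2 had 0 reads. Of the tested markers 1 trophectoderm gene rose (list sums of 47.3 to 51.4 against 56.9 to 59.6 CPM), 1 mesoderm gene rose (11.6 to 15.3 against 15.7 to 16.9 CPM), 1 ESC gene rose (6629 to 6709 against 6598 to 6705 CPM) and 1 neural gene fell (90.8 to 106.0 against 68.4 to 70.8 CPM). Their part in the result was not tested.

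In the libraries labelled rTRS DOX, 2 of 5 members rose and none fell, where 23.0% of 16291 genes were called higher and 20.4% lower (43.4% in all, and 12.0% past a log2 limit of 1). Loxl4 rose from 0.724 and 0.465 CPM in NTC to 3.41 and 3.93 CPM (2.62 ± 0.32, adjusted p = 2.38e-05). Loxl2 rose from 61.3 and 63.1 to 77.3 and 76.1 CPM (0.30 ± 0.07, adjusted p = 0.00365). Neither overlapped between the groups, and leaving out any 1 library kept both calls. Lox was at 0.0978 and 0.186 against 0.558 and 0.373 CPM, also without overlap, but missed the threshold (1.69 ± 0.72, adjusted p = 0.0758). Its 5 and 10 reads in NTC were below the low-count filter, which it passed only through the 29 and 19 reads in DOX, and without the filter the adjusted p was 0.131. Loxl1 was at 8.78 and 6.83 against 9.20 and 6.81 CPM (0.04 ± 0.18, adjusted p = 0.887), and Loxl3 at 1.39 and 1.51 against 1.89 and 2.1 CPM (0.46 ± 0.30, adjusted p = 0.238). Cell type markers moved in these libraries as well. Of 10 ESC markers 8 fell, with sums of 6356 to 6692 CPM in NTC and 3881 to 4140 CPM in DOX. The trophectoderm list went from 242.1 to 251.1 CPM up to 964.2 to 1038 CPM and the mesoderm list from 13.4 to 16.4 CPM up to 62.4 to 69.2 CPM. The primitive endoderm list summed to 192.7 to 193.3 CPM in NTC and 306.2 to 308.9 CPM in DOX, with 1 of 8 tested markers called higher and 2 lower. Of 3 tested neural markers 1 rose and 2 fell (135.2 to 147.1 against 76.3 to 83.4 CPM). Of 5 tested fibroblast markers 3 rose and 1 fell, with sums of 34.8 to 35.6 against 36.5 to 41.2 CPM. Col6a1 rose from 0.235 and 0.409 to 2.04 and 1.69 CPM, and Thy1 fell from 15.0 and 14.7 to 9.93 and 8.03 CPM. Lum had 0 reads, and Dcn was at 0 and 0 against 1 and 10 reads. Their part in the result was not tested.

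Lysyl oxidases act on substrates that other enzymes fold, modify and place, so 46 genes of that pathway were counted in the same fits. In Rybp-/- ESCs 30 rose and 5 fell of 44 tested (79.5% called, beside 45.5% of all genes), with a median log2 fold change of 0.61 beside 0.00 over all genes. Among the fibrillar and basement membrane collagens and elastin, 7 of 8 rose, including Col3a1 (1.24 ± 0.12), Col4a1 (1.14 ± 0.06) and Col1a2 (1.06 ± 0.06). Of the collagen modifying and folding genes 7 of 12 rose and 1 fell, led by Serpinh1, the collagen chaperone HSP47 (1.51 ± 0.04). Among genes of activation and scaffold, 10 of 12 rose and 1 fell, among them Tnxb (2.04 ± 0.28), Fbln5, the fibulin that binds Loxl1 (1.29 ± 0.18), and Postn, which binds Bmp1 (1.16 ± 0.18). Of the copper supply genes none rose and 2 of 3 fell: the importer Slc31a1 (-0.50 ± 0.05) and the pump Atp7a, which loads copper into secreted enzymes (-0.18 ± 0.07). Known inducers and partners rose in 6 of 9 cases and fell in 1, with Tgfbr2 (1.56 ± 0.16), Snai2 (1.31 ± 0.28) and Ccn1 (0.94 ± 0.04) changing most.

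With shRybp, 23 pathway genes were called higher and 7 lower of 42 (71.4%, beside 52.7% of all genes), and with shWdr5 25 rose and 8 fell of 41 (80.5%, beside 63.0%). Collagen IV was higher in both tables against the shared controls. Col4a2 had a log2 fold change of 2.34 ± 0.10 in shRybp and 2.04 ± 0.09 in shWdr5, and Serpinh1 had 1.49 ± 0.06 and 2.14 ± 0.06. Bmp1, the protease that activates Lox, had 2.06 ± 0.11 and 0.92 ± 0.14. Ccn2, a matricellular protein induced by TGF-β, had 2.59 ± 0.09 in shRybp and 2.49 ± 0.10 in shWdr5. The counts for shWdr5 include Eln and Tll1, which passed the low-count filter through 1 group only. Tgfb1 fell there (-1.88 ± 0.13), as did Plod1, a lysyl hydroxylase (-1.08 ± 0.08).

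The pathway moved in both directions in the other comparisons. In TF-AA 12 were called higher and 7 lower of 38, where 30.5% of all genes were called, with Fbn1 (1.35 ± 0.16) higher and Pcolce, the enhancer of Bmp1 (-0.95 ± 0.08), lower. The higher genes include Col1a2, whose 5 and 4 reads in WT ESCs against 55 and 66 in TF-AA passed the low-count filter only through TF-AA, and 11 were higher without it. In RYBP phase disruption 8 rose and 10 fell of 44 (40.9%, beside 33.0%), with Tnxb (1.35 ± 0.31) and the prolyl hydroxylase gene P4ha2 (1.18 ± 0.08) higher and Col1a2 lower (-0.48 ± 0.05). In Tet.RYBP 2 rose and 3 fell of 38 (13.2%, beside 6.02%), and Col4a2 (-1.14 ± 0.20) and Col4a1 (-0.77 ± 0.13) were lower. In rTRS DOX 20 rose and 8 fell of 42 (66.7%, beside 43.4%), with Ccn2 (3.38 ± 0.10), Ccn1 (3.02 ± 0.09), Bmp1 (1.96 ± 0.11), Col5a1 (1.71 ± 0.09) and Serpinh1 (1.70 ± 0.07) higher. Lower there were Pcolce (-0.79 ± 0.07), the partners Crtap (-0.74 ± 0.08) and P3h1 (-0.53 ± 0.10) of prolyl 3-hydroxylation and the copper chaperone Atox1 (-0.32 ± 0.08). The counts and medians describe the list and were not tested as a set.

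**Figure D3:**
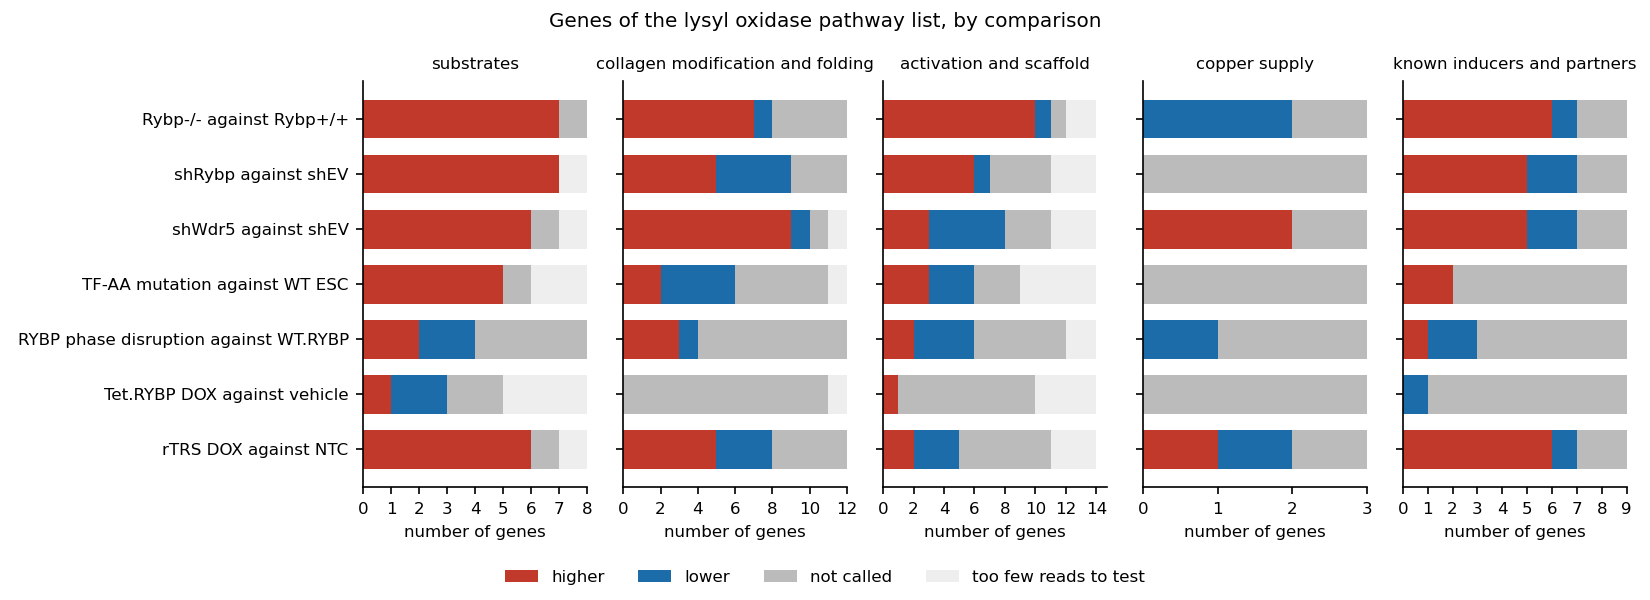
Number of genes of each pathway list called higher, called lower or not called at an adjusted p below 0.05, by comparison (for shRybp a description). Of the tested substrates 7 of 8 rose in Rybp-/- ESCs, whereas of the copper supply genes 2 of 3 fell.

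Patterns across the series were compared as a description over the 28 libraries of log2 CPM differences from each table's controls. For Loxl4, the genes with the highest Pearson r among 13126 were Epb4.1l3 (0.95), Bmp1 (0.94) and Stom (0.93). For Loxl3 they were Plat (0.91), Col4a2 (0.90) and Acaa1b (0.90), and for Loxl2 3632451O06Rik (0.90), Cgrrf1 (0.88) and Zfyve9 (0.86). Loxl1 was most like Sphk2 (0.89), Trim16 (0.88) and Foxred2 (0.87), and Lox most like Mkl2 (0.84), Srsf12 (0.83) and Layn (0.81). Between members the highest values were Lox with Loxl4 (0.78) and Loxl3 with Loxl4 (0.77), and Loxl1 with Loxl2 had -0.25. These were picked from a few pairs and not from 13126 genes, so they cannot be ranked against the values above. The libraries share tables, depth and the shEV controls, and the shRybp libraries that chose the family are among them.

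ChIP-seq peak lists were compared by which genes had a peak within 2500 bp of an annotated start site, internal starts included. Replicates were merged before calling or were single libraries, so no test between lists was possible, and the lists do not give the depth. Fold enrichment (FE) over background is the value of the caller, MACS2. H3K4me3, the mark of active and poised start sites, was at 5 of 5 members in Rybp+/+ and Rybp-/- ESCs, beside 67.8% and 67.9% of 22380 protein-coding genes. Its FE at the start sites was 24.2 in Rybp+/+ and 20.3 in Rybp-/- for Lox, 17.3 and 19.3 for Loxl1, and 34.1 and 30.6 for Loxl2. Loxl3 had 41.9 and 29.0, and Loxl4 21.6 and 19.3. The mark was thus also at Loxl4, the member with the lowest level per kilobase in these cells.

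H3K27ac, a mark of active promoters and enhancers, differed more among the members. It was at 3 of 5 members in Rybp+/+ ESCs (51.6% of all genes) and at 4 in Rybp-/- ESCs (54.8%). At Loxl4 no peak was called in Rybp+/+ and 4 were called in Rybp-/- ESCs, with summits at 228, -613, -1282 and -2163 bp from a start site (upstream negative), between chr19:42686803 and chr19:42689696. Their FE of 3.01, 3.28, 3.10 and 3.25 was at the 19.7th to 31.0th percentile of the list, so these were weak peaks. At the Loxl1 start the strongest peak had an FE of 3.21 in Rybp+/+ (21.1st percentile) and 6.17 in Rybp-/- (76.0th). In a Loxl1 intron, the peak at chr9:58143115-58144219 had an FE of 3.30, and the one at chr9:58143492-58144177 in Rybp-/- had 8.59. This intron also held the Loxl1 STAT3 window printed above. Downstream of Loxl1 there was a domain at chr9:58112520-58133445 (FE 20.0, summit at chr9:58124241) in Rybp+/+. In Rybp-/- there was a peak at chr9:58130830-58133421 (FE 6.57, summit at chr9:58132650). Only peaks overlapping the gene or 5 kb on each side were listed, and the Rybp+/+ summit lies outside that range. A Rybp-/- peak at that summit may therefore be missing from the list, so the FE values of this domain and this peak cannot be ordered. Loxl2 had 3.57 and 3.66 at its start and Loxl3 4.44 and 3.36. Downstream of Loxl3 a stronger peak had an FE of 16.2 in Rybp+/+ (chr6:83002767-83005733, 90.8th percentile). In Rybp-/- it had 20.9 (chr6:83003142-83005737, 95.4th). Lox had no H3K27ac peak in either list, although it was the member with 20.3 to 35.3 CPM in these cells.

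**Figure D4:**
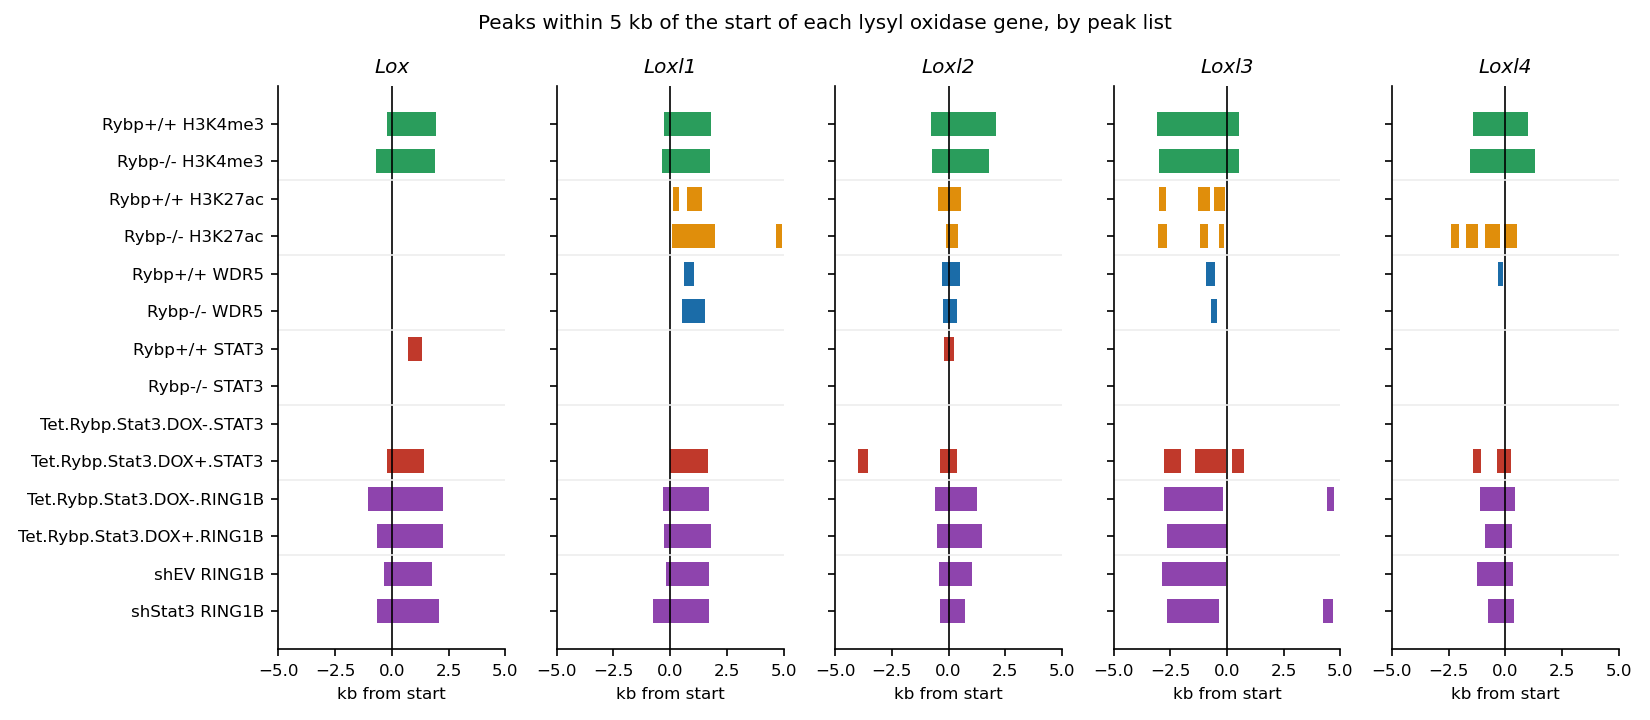
Peaks at the members, drawn as distance in kb from the gene start (downstream positive, 5 kb on each side), with 1 row per peak list and colour for the ChIP target. H3K27ac peaks appear at Loxl4 only in the Rybp-/- list, and STAT3 peaks at all 5 members in the DOX+ list.

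WDR5 peaks were at 4 members in Rybp+/+ ESCs (46.8% of all genes) and 3 in Rybp-/- ESCs (49.2%). Loxl1 had an FE of 3.95 and 5.43, Loxl2 3.21 and 3.82, and Loxl3 5.13 and 4.00. The Loxl4 peak of Rybp+/+ ESCs was near the calling threshold (FE 3.08, -log10 q 1.52), and none was called in Rybp-/-. RING1B was at 5 of 5 members in each of its 4 lists, where 45.9% of genes had a peak in shEV ESCs, 41.6% in shStat3 ESCs, 54.7% in DOX- and 41.9% in DOX+ cells of the Rybp_Stat3 integration. The Lox start carried the strongest RING1B of the family, with an FE of 44.2, 44.0, 53.7 and 42.3 in these lists, and the Lox transcript was at 0.558 CPM or less in every R1 and rTRS library. Loxl1 had 18.8, 13.1, 12.7 and 14.3, and it was the most abundant member in shEV ESCs (14.7 and 16.7 CPM). None of these 4 lists is of Rybp+/+ or Rybp-/- ESCs, where Lox was expressed. The remaining members lay between 3.60 (Loxl2 in shStat3) and 11.9 (Loxl2 in DOX-), and Loxl4 had 5.39, 10.7, 9.14 and 9.16.

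STAT3 was called at 0 members in DOX- cells (9.03% of all genes) and at 5 of 5 in DOX+ cells, in a list of 30663 peaks that marked 57.5% of all genes, beside 2816 peaks in DOX-. Within the DOX+ list Loxl1 had an FE of 10.3 (96.9th percentile) and Loxl4 8.57 (93.3rd) at a summit -24 bp from its start. Lox had 7.48 (89.2nd), Loxl3 5.60 (73.0th) and Loxl2 5.50 (71.7th). Inside the genes the summits had an FE of 4.57 in the Loxl1 intron, 6.69 in the Loxl2 coding exon and 3.95 in the Loxl4 coding exon. In R7.15 cells STAT3 lists were short. Peaks were called at Lox (FE 4.42) and Loxl2 (3.05) in Rybp+/+ ESCs, where 7.78% of genes had one, and at 0 members in Rybp-/- ESCs (6.56%). Neither of these peaks reached a -log10 q of 5.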

How the data were processed

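RNA-seq was made in 14 groups of 2 libraries (the shEV libraries counted in both knockdown tables) and ChIP-seq in the groups whose peak lists are given. Per the labels and the study's methods, the authors trimmed reads with Trim Galore, aligned them to mm9 with STAR and counted them with htseq-count; the deposited count tables hold raw counts per gene. The authors called peaks with MACS2, after merging replicates where there were any; the deposited lists give fold enrichment, a ratio over background, and -log10 q. Gene length is given in 6 of the 7 tables; lengths from the Rybp-/- table were used for all, also for Tet.RYBP. Columns were matched to samples by name, and 0 were left out. A few names differ from the labels: 1 rTRS DOX column (replicate 2) has another prefix, the phase disruption controls are named WT only (taken as WT.RYBP), and the Tet.RYBP controls are named NTC (taken as vehicle). Other ChIP-seq and APEX samples were not analysed here.

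Each table was fitted on its own in R 4.3.3 with edgeR 4.0.16 (filterByExpr, TMM, quasi-likelihood test, 2 against 2 libraries, Benjamini-Hochberg over all genes of the table). Pathway genes named in the text come from the called genes with the largest absolute change in each list, at most 3 per list and comparison, apart from genes set beside the same gene in another table. The low-count filter keeps a gene with enough reads in either group; genes past it in 1 group only had to differ, and 0 to 4 called markers per comparison are of that kind. CPM used TMM library sizes; rows that name no gene were left out of library sizes, and held 13.73% to 26.47% of reads in the 6 tables that have them. The floor was 3 counts. Intervals are exact and cover counting error only. DESeq2 1.42.0, RLE scaling, no filter, a replicate block, a log2 limit of 1 and leaving out each library were tried. Peaks were placed on NCBIM37, the build of mm9, with Python 3.11.15 and pandas 2.3.3. The fit was tested on simulated data. Replicates of each group differed by more than counting noise (chi-square per degree of freedom 2.1 to 12.9). The members, lists and tests were chosen with earlier results of these data known.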

Additional observations from a re-analysis of the deposited data

Results flagged for a closer look

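The fitted log2 fold change of Loxl2 had opposite signs in the 2 lines with less RYBP. In R7.15 cells it was -0.15 in Rybp-/- against Rybp+/+ ESCs, and in R1 cells it was 0.82 in shRybp against shEV ESCs. Every Rybp-/- library was below every Rybp+/+ library, and every shRybp library was above every shEV library. The difference between the lines was not tested, and no difference is claimed. The R7.15 change is small and its call is lost in 4 of the alternatives, and the R1 contrast is the one that chose the family, from which nothing is read.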

How the results depend on the processing

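The number of lysyl oxidase genes called was within 1.5 times its value with RLE scaling and without the low-count filter in all 7 comparisons, and with DESeq2 except in RYBP phase disruption (1 in place of 3) and Tet.RYBP (0 in place of 1). With a log2 limit of 1 in addition, 2 were called in Rybp-/-, 0 in RYBP phase disruption, 0 in Tet.RYBP and 1 in rTRS DOX. Leaving out each library in turn gave 4 to 5 in Rybp-/-, 3 to 4 in shRybp, 2 to 3 in shWdr5, 2 to 3 in TF-AA, 2 to 3 in RYBP phase disruption, 0 to 1 in Tet.RYBP and 2 in rTRS. The TF-AA counts include Loxl4, which passed the low-count filter through 1 group only. For shRybp and shWdr5 these counts are a description, since their shEV libraries were among those that chose the family. Where a left-out library leaves 1 in its group, that library is assumed to vary like the others. Direction was reversed only when a library was left out, and only in members that had not passed the test: Loxl3 in TF-AA (-0.38 to 0.58), Loxl3 in RYBP phase disruption (-0.32 to 0.045), Loxl1 in Tet.RYBP (-0.41 to 0.62) and Loxl1 in rTRS (-0.20 to 0.24). The cause was not tested.

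With plain library sizes the summed CPM of the family moved by more than 1 SD in Rybp+/+ (69.4 from 69.9), shRybp (45.3 from 42.9) and rTRS NTC (71.8 from 72.2). At a -log10 q of at least 5 the STAT3 peaks of Rybp+/+ ESCs marked 0 members in place of 2.

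Replicates share only a number. Deviations of same-numbered libraries correlated at -0.000752 to 0.15, and with the replicate block 5, 4, 3, 3, 3, 1 and 2 members were called in the order of the report, the same counts as without it. Over all genes the block gave 8559 calls in rTRS in place of 7070. DESeq2 called 2911 genes in TF-AA in place of 4412 and 2653 in RYBP phase disruption in place of 4814. Leaving out a library gave 2724 to 4767 calls in TF-AA and 406 to 1566 in Tet.RYBP, where the fit of all libraries gave 899. With a log2 limit of 1, 135 to 2815 genes were called.

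With 2 libraries per group, depth limits the low members. Lox had at most 39 summed reads per group in R1 cells, and Loxl4 14 in Tet.RYBP DOX. Ratios of summed reads with a library left out were added after seeing the data. The peak lists hold no replicate and no depth.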
